A study of Homo sapiens with 14 samples.

Results

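The human HOX genes were followed across KMT2D genotype and glucose supply in SCC23 cells, an established head and neck squamous cell carcinoma (HNSCC) line. The members were chosen by name alone, as the gene names made of HOX, a cluster letter from A to D and a number. They are 39 of the 59471 gene names in the count tables. Poly(A) RNA-seq gave counts in 14 libraries, made in 2 experiments. The cells were KMT2D-WT or belonged to KO1 or KO2, a pair of Cas9-edited KMT2D-KO lines, and had grown in high-glucose medium (+Glc) or without glucose for 6 h (-Glc). In each glucose condition there were 3 KMT2D-WT and 4 KMT2D-KO libraries, with 1 library per line in experiment 1, and 2 KMT2D-WT libraries and 1 library of each KMT2D-KO line in experiment 2. Both KMT2D-KO lines were grown from transfected cells sorted on a fluorescent marker, no cloning of single cells is described for them, and the protocol names a LacZ guide as the editing control without stating which libraries carry it. Values of single libraries are given for KMT2D-WT in the order experiment 1 and then the pair of experiment 2, and for KMT2D-KO in the order KO1 and KO2 of experiment 1, then KO1 and KO2 of experiment 2. Nothing in the labels says that libraries came from separate cultures, so each p-value measures the spread between libraries, which may be technical.

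HOX genes encode homeodomain transcription factors that give cells a position along the body axis. They lie in 4 clusters, named A to D, and within each cluster the order of the genes follows the order in which they are used from head to tail, so that low paralog numbers mark the hindbrain and neck and high numbers mark the trunk, limb ends and urogenital tract. HOX proteins bind DNA together with PBX and MEIS proteins of the TALE family. Polycomb complexes keep silent stretches of a cluster repressed through H3K27 methylation, and trithorax-group complexes, the family to which the H3K4 methyltransferase KMT2D belongs, oppose them. Adult epithelia and their tumours keep part of the HOX pattern of their origin.

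Total counts ranged from 15669154 to 62968057 per library (median 24817708), and HOX genes took between 2154 and 14215 of them. Between 32 and 38 of the 39 genes had at least 1 count in a library. In the 4 +Glc libraries of experiment 2 both mates of each read pair were counted. No libraries of a group agreed within counting noise, but in -Glc cells the 2 KMT2D-WT and the 2 KMT2D-KO libraries of experiment 2 lay close together, with a chi-square of 1.71 and 1.78 per degree of freedom against 25.9 or more in the other 16 pairs within a group. KMT2D mRNA remained in the edited cells and so does not check the genotype. It had 273, 270.5 and 274 CPM (counts scaled to the TMM-normalised library size) in the KMT2D-WT +Glc libraries, 175 and 187 CPM in KO1 and 320.3 and 371 CPM in KO2. In -Glc cells it had 234 to 239 CPM in KMT2D-WT, while the KO1 library of experiment 1 had 19.9 CPM, its KO2 library 189.9 CPM, and the libraries that experiment 2 labels KO1 and KO2 149 and 146 CPM. The KMT2D-KO -Glc libraries thus did not fall by labelled line as the +Glc libraries did, both of experiment 2 and the KO2 library of experiment 1 lay nearer to the KO1 than to the KO2 +Glc level, and the KO1 library of experiment 1 stood far below all others. Which of these labels hold cannot be told, and single lines were compared only in +Glc cells. Of 12 squamous markers, 11 or 12 reached 1 CPM in each group, and their summed level was 2972 to 5262 CPM; KRT6A was the marker below 1 CPM in most libraries. COL1A1, which encodes a chain of type I collagen, was the fibroblast marker that stood above 1 CPM in all libraries.

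A gene was called expressed where its mean reached 1 CPM in at least 1 of the 4 groups, and 29 of the 39 HOX genes did so. These were 10 of 11 HOXA genes, 7 of 10 HOXB genes, 7 of 9 HOXC genes and 5 of 9 HOXD genes. By position, 6 of 12 genes of paralog groups 1 to 4, 9 of 11 of groups 5 to 8 and 14 of 16 of groups 9 to 13 were expressed. The 10 genes below the limit were HOXA7, HOXB1, HOXB2, HOXB4, HOXC5, HOXC12, HOXD1, HOXD3, HOXD4 and HOXD12. Other genes overlap 62.5% of the exonic bases of HOXA7, 59.9% of HOXC5 and 60.1% of HOXD1, and at most 14.6% of the rest. Reads on such bases are left out by default in counting, so the counts of HOXA7, HOXC5 and HOXD1 may be too low. HOXB1, a hindbrain gene, had 0 counts in all 14 libraries, and HOXC12, HOXD3 and HOXD4 had a count in a few libraries only. HOXA6 was near the limit, at 0.972 ± 0.133 CPM (SD, n = 3) in KMT2D-WT and 1.03 ± 0.58 CPM (n = 4) in KMT2D-KO +Glc cells.

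Levels of different genes were compared per kilobase of exon (RPKM). HOXB7, a trunk gene on chromosome 17, had the highest level, with a mean of 15.8 RPKM over the 14 libraries and a range from 9.53 to 26.2. HOXD10, which patterns the lower spine and limbs and lies on chromosome 2, followed at 10.4 RPKM (4.75 to 15.7). These genes held ranks 1 and 2 in every library. HOXA11, a limb and uterus gene on chromosome 7, had 5.24 RPKM (3.34 to 8.98) and was the highest in its cluster, and HOXC10, a lumbar and hindlimb gene on chromosome 12, had 2.55 RPKM (0.990 to 3.97). HOXC10 was above HOXC13 in 10 libraries and below it in the 4 KMT2D-KO +Glc libraries. HOXC10, HOXB13 (2.54), HOXC13 (2.53) and HOXA3 (2.52) had overlapping ranges, so their order is not defined. The plot of levels along the clusters shows that low or absent genes sat next to high ones, as HOXC12 did beside HOXC13, and HOXD12 beside HOXD11 and HOXD13.

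**Figure D1:**
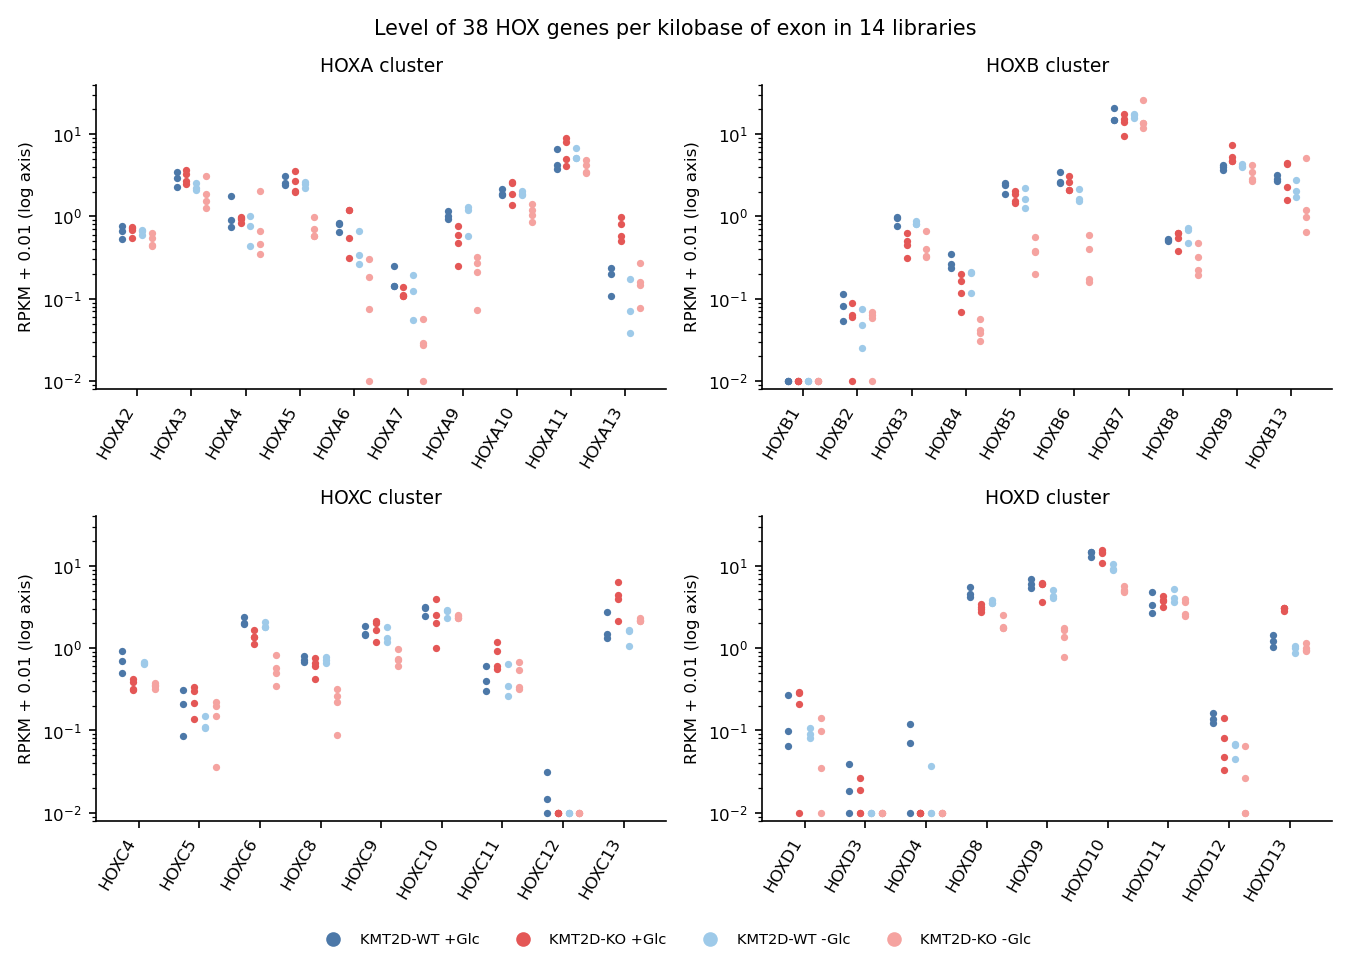
Level of 38 HOX genes in RPKM plus 0.01 on a log axis, in order of paralog number in the HOXA, HOXB, HOXC and HOXD clusters. Each point is 1 library, coloured by group (3 KMT2D-WT and 4 KMT2D-KO libraries in each glucose condition). HOXB7 and HOXD10 are highest in all 14 libraries, and HOXB1 is at 0 in all.

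The summed CPM of the HOX genes gave a first view of the groups. All 39 genes together had 248, 204 and 213 CPM in KMT2D-WT +Glc, and 229.7, 233, 219.5 and 197 CPM in KMT2D-KO +Glc, so these groups overlapped. In -Glc cells they had 202, 183 and 190.2 CPM in KMT2D-WT and 167, 121, 106 and 111 CPM in KMT2D-KO, with no overlap. The HOXD sum was the clearest case, at 52.2 to 54.2 CPM in KMT2D-WT -Glc and 27 to 32.8 CPM in KMT2D-KO -Glc. The HOXB sum overlapped, because the KO1 library of experiment 1 had 72.4 CPM while the other KMT2D-KO -Glc libraries had at most 37.7 CPM. HOXB7 alone had 39.8 CPM in that library, against 17.9 to 20.7 CPM in the other 3. In bulk RNA, fewer cells of a kind and less RNA per cell cannot be told apart.

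**Figure D2:**
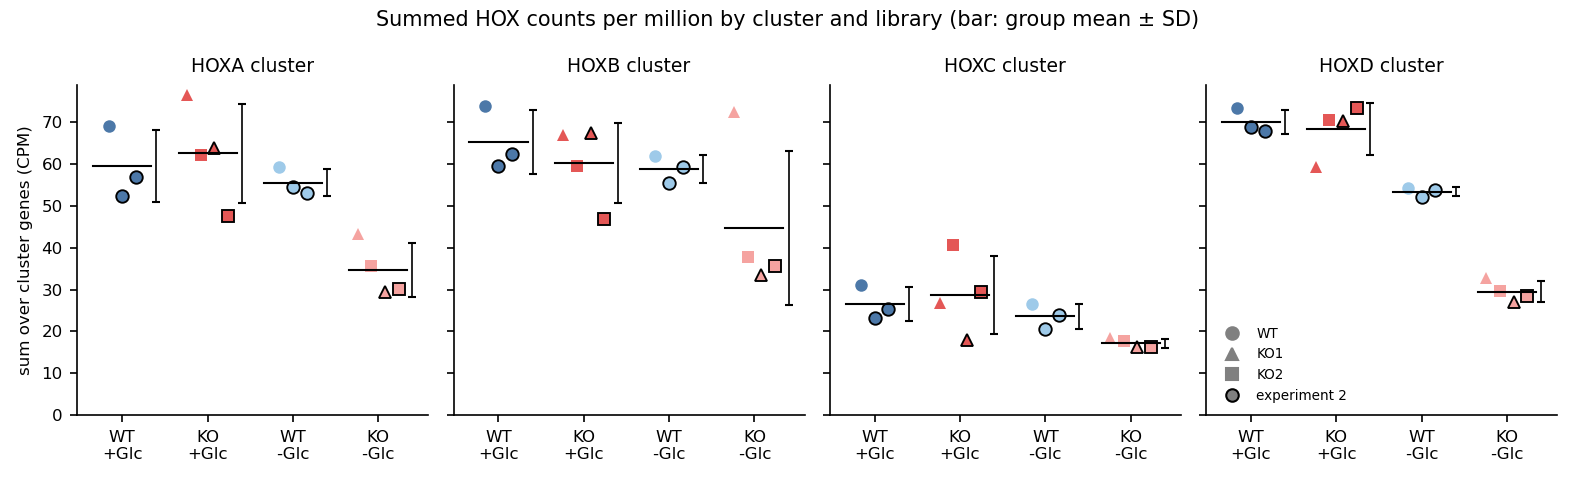
Summed CPM of the genes of each HOX cluster by group. Points are libraries (circle KMT2D-WT, triangle labelled KO1, square labelled KO2, black edge experiment 2), the line is the group mean and the bar the SD (n = 3 KMT2D-WT and 4 KMT2D-KO). The KMT2D-KO -Glc libraries lie below the KMT2D-WT -Glc libraries in the HOXA, HOXC and HOXD clusters, and the KO1 library of experiment 1 stands above the others in the HOXB cluster.

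In +Glc cells HOX genes were called in both directions in KMT2D-KO cells. Of 39 HOX genes, 35 passed the filter on low counts, and 5 were higher and 5 were lower in KMT2D-KO than in KMT2D-WT cells (edgeR quasi-likelihood test with experiment as covariate, Benjamini-Hochberg adjusted p under 0.05). Of all 20423 genes tested, 24.7% were called, 13.0% higher and 11.7% lower, so the number of HOX genes called was near the background. The 5 genes called higher belong to paralog groups 9 to 13, where 15 were tested. Of the 5 called lower, 2 belong to groups 1 to 4, 2 to groups 5 to 8 and 1 to groups 9 to 13. Whether position mattered was not tested. The median log2 fold change was 0.10 over groups 9 to 13, -0.27 over groups 5 to 8 (11 tested) and -0.41 over groups 1 to 4 (9 tested), beside 0.02 over all genes.

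The largest increases among the genes called were those of HOXA13, HOXD13 and HOXC13, the last genes of their clusters. HOXA13, a distal limb and urogenital gene, had 0.494, 1.15 and 0.957 CPM in KMT2D-WT and 2.89, 2.50, 4.94 and 4.04 CPM in KMT2D-KO cells. Every KMT2D-KO library was above every KMT2D-WT library, and the level rose from 0.866 ± 0.335 (SD, n = 3) to 3.59 ± 1.11 CPM (n = 4), a log2 fold change of 2.2 ± 0.23 (SE, adjusted p = 0.00028, edgeR). HOXD13, its partner in digit formation, had 2.96, 2.49 and 3.42 CPM in KMT2D-WT and 7.38, 7.45, 7.32 and 6.85 CPM in KMT2D-KO cells. The KMT2D-KO libraries lay close together and well above the controls, with a log2 fold change of 1.3 ± 0.17 (SE, adjusted p = 0.00099, edgeR). HOXA13 and HOXD13 also passed without experiment as covariate, with an adjusted p of 0.029 and 0.017, and were the HOX genes called in that fit.

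HOXC13, which controls keratin genes of hair and nail, had 6.51, 3.11 and 3.49 CPM in KMT2D-WT and 9.21, 15.1, 4.97 and 10.4 CPM in KMT2D-KO cells. The groups overlapped, because the KO1 library of experiment 2 was below the KMT2D-WT library of experiment 1, but within each experiment the KMT2D-KO libraries were higher. Its log2 fold change was 1.11 ± 0.28 (SE, adjusted p = 0.019, edgeR). HOXC11, a hindlimb gene, rose by 0.78 ± 0.23 on the log2 scale (adjusted p = 0.036, edgeR), also with overlapping groups. HOXB9, a thoracic gene, had 9.55, 10.4 and 10.8 CPM in KMT2D-WT and 12.2, 12.3, 19.2 and 13.7 CPM in KMT2D-KO cells, without overlap, and a log2 fold change of 0.54 ± 0.15 (SE, adjusted p = 0.028, edgeR). HOXB13, the remaining gene of group 13 and a hindgut and prostate factor, averaged 0.10 ± 0.34 and its KMT2D-KO lines lay on opposite sides of KMT2D-WT.

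The 5 genes that fell came from all 4 clusters. HOXC4 and HOXB3, genes of the neck and hindbrain, changed by -0.97 ± 0.27 and -0.93 ± 0.24 on the log2 scale (SE, adjusted p = 0.027 and 0.021, edgeR). HOXB3 had 7.08, 5.67 and 7.23 CPM in KMT2D-WT and 2.24, 4.66, 3.26 and 3.67 CPM in KMT2D-KO cells. HOXA9, known from blood progenitors, had 2.76, 3.53 and 3.06 CPM against 1.42, 0.721, 2.28 and 1.77 CPM. Neither gene overlapped between groups, and the change of HOXA9 was -0.92 ± 0.27 (SE, adjusted p = 0.037, edgeR). HOXC6, a thoracic gene, and HOXD8, a trunk gene, changed by -0.65 ± 0.16 and -0.65 ± 0.12 (SE, adjusted p = 0.017 and 0.0057, edgeR). HOXD8 had 14.6, 11 and 12 CPM in KMT2D-WT and 9.09, 8.17, 7.84 and 7.27 CPM in KMT2D-KO cells, again without overlap.

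The count of 10 HOX genes rested on the design. It was 2 without experiment as covariate, where 495 of all 20423 genes were called higher and 476 lower. It was also 2 when the KMT2D-WT library of experiment 1 was left out, beside 1134 higher and 1008 lower of all 21365 genes. It was 5 and 3 when either KMT2D-WT library of experiment 2 was left out. Among 19827 and 20041 genes tested, 1653 and 1698 were then called higher and 1454 and 1551 lower. Experiment 2 alone called 2 HOX genes, beside 1211 higher and 1125 lower of 19885 genes (edgeR). Experiment 1 alone, with 1 KMT2D-WT library, had a median log2 fold change of -0.26 over 33 HOX genes and 0.01 over all genes. The summed level of 7 fibroblast markers was 5.95 to 6.96 CPM in KMT2D-WT and 12.4 to 27.3 CPM in KMT2D-KO +Glc cells, with COL1A1 at 5.06 to 6.75 and 11.5 to 15.4 CPM. COL1A2 and COL3A1 had 5.42 and 5.34 CPM in the KO1 and 3.23 and 3.21 CPM in the KO2 library of experiment 2, 0 in both KMT2D-KO libraries of experiment 1, and at most 0.874 and 0.211 CPM in KMT2D-WT. PDGFRA, PDGFRB, DCN and LUM stayed below 1 CPM in all libraries. The part of these markers in the HOX results was not tested.

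Upstream sequences of genes that moved in opposite directions are shown to let the windows be compared. They are the 250 bases before the RefSeq start (239 for HOXD8) on GRCh38.p14, written in the direction of transcription, with each CG in capitals. The windows lie at chr7:27200092-27200341 on the minus strand (HOXA13), chr2:176092471-176092720 on the plus strand (HOXD13), chr7:27165538-27165787 on the minus strand (HOXA9) and chr2:176129455-176129693 on the plus strand (HOXD8), and none overlaps an annotated exon.
HOXA13: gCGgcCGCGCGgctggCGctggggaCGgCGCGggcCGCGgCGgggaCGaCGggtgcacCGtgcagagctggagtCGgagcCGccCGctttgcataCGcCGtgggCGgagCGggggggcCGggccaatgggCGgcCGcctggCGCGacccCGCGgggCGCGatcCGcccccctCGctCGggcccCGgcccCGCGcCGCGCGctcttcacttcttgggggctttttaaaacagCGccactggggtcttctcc
HOXD13: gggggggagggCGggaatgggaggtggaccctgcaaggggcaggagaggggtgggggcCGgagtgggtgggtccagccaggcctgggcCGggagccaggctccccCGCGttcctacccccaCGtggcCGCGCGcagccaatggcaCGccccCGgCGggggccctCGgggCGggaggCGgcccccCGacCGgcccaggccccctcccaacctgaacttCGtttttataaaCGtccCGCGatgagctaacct
HOXA9: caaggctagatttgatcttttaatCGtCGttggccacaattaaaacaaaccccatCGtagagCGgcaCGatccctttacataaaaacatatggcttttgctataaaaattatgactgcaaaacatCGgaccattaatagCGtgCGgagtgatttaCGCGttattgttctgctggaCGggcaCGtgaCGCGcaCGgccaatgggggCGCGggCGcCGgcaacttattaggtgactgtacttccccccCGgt
HOXD8: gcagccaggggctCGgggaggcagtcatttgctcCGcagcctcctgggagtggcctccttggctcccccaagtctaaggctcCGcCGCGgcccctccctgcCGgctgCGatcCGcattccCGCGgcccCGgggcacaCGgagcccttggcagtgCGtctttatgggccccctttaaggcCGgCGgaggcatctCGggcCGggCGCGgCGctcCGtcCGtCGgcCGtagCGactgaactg
HOXA13 and HOXD13 rose and HOXA9 and HOXD8 fell in KMT2D-KO +Glc cells. The HOXA13 window held 40 CG, a number that 2.16% of 35114 human promoter windows reach. HOXD8 had 28 CG, HOXD13 had 21 and HOXA9 had 20, so CG number did not separate the directions in these 4 windows. CG and motifs were counted over the full 250 bases. For HOXD8 the bases beyond the 239 printed lie in its own exon, so the printed part holds fewer CG. Windows were available for 20 of the 39 HOX genes (27 entries), with a median of 19 CG against 11 over all windows. HOXC4 and HOXC5 share the same window, which is counted for each, and several entries are starts of HOXA3. On either strand TATAAA was found in 5 of these 27 windows, HOXD13 and HOXA9 among them, and in 10.7% of all windows. CCAAT was found in 18 of 27, and in 32.0% of all windows. The paired HOX and PBX motif TGATTNAT was found in 2 of 27, and in 2.48% of all windows.

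**Figure D3:**
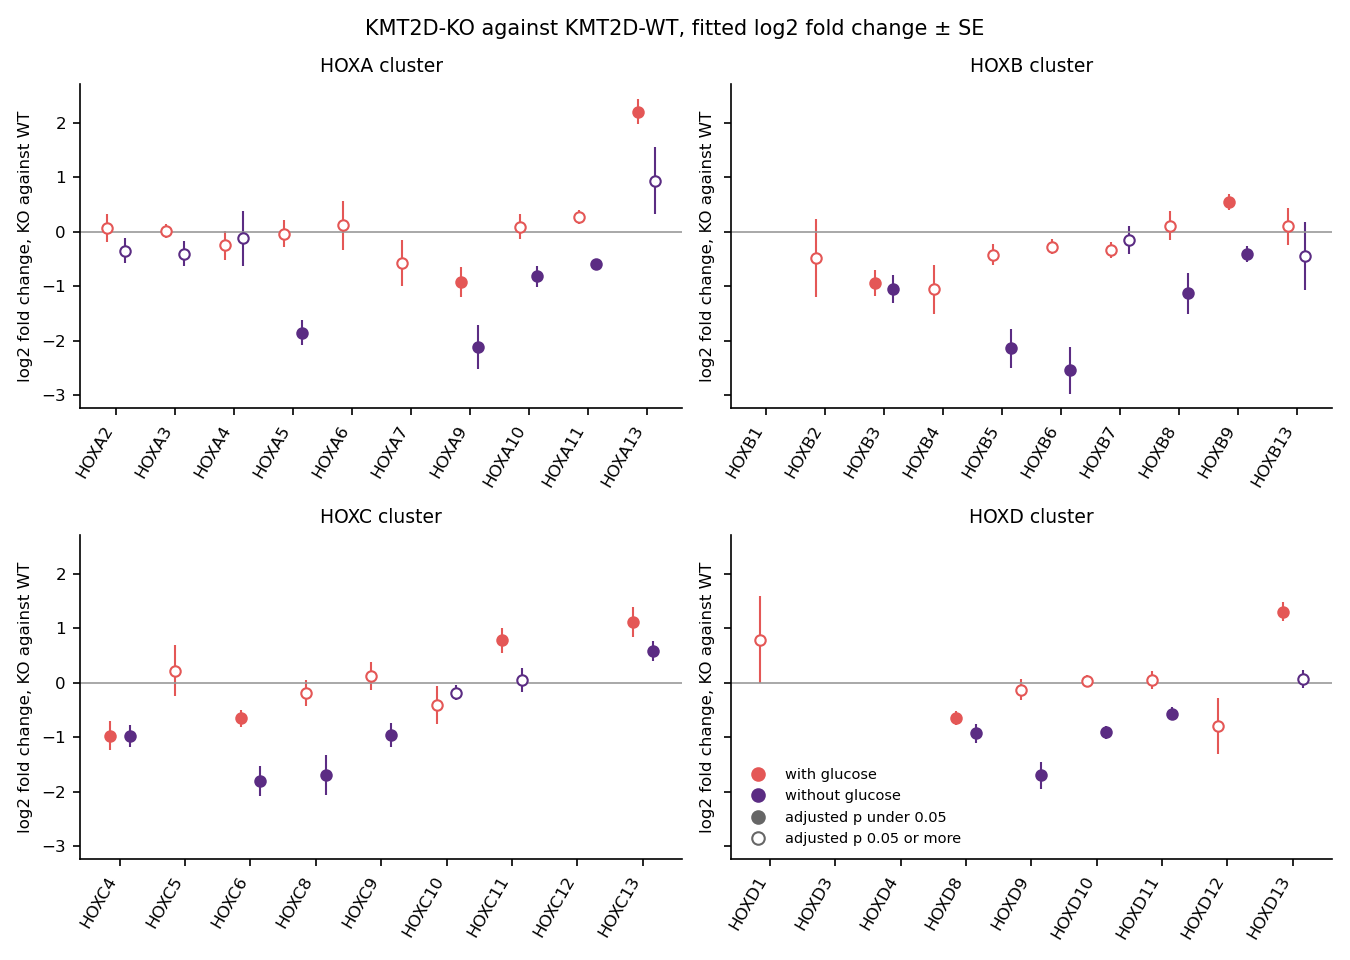
Fitted log2 fold change of KMT2D-KO against KMT2D-WT cells with its SE for the HOX genes plotted by level, in order of paralog number, in +Glc (red) and -Glc cells (purple). Filled points have an adjusted p under 0.05 (edgeR), and genes below the filter have no point. In +Glc cells HOXA13, HOXC13 and HOXD13 lie above 0, and in -Glc cells most of the middle genes lie well below it.

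Without glucose most of the HOX genes tested were lower in KMT2D-KO than in KMT2D-WT cells. Of 28 HOX genes that passed the filter, 18 were lower and 1 was higher (edgeR, adjusted p under 0.05), and 24 had a negative log2 fold change. Among all 16782 genes tested 50.8% were called, 24.9% lower and 25.9% higher. The median log2 fold change was -0.86 over the HOX genes and 0.00 over all genes. Genes lower in KMT2D-KO were 5 of 9 in HOXA, 5 of 7 in HOXB, 4 of 7 in HOXC and 4 of 5 in HOXD. By position they were 3 of 6 in paralog groups 1 to 4, 7 of 8 in groups 5 to 8 and 8 of 14 in groups 9 to 13, with medians of -0.69, -1.75 and -0.51.

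The largest decreases were in the middle of the clusters. HOXB6, a forelimb and lung gene, had 5.64, 4.01 and 4.16 CPM in KMT2D-WT and 1.51, 0.392, 1.02 and 0.422 CPM in KMT2D-KO cells. HOXB5, its neighbour and a gene of gut and lung development, had 2.53, 3.31 and 4.52 CPM against 1.13, 0.392, 0.743 and 0.760 CPM. Neither gene overlapped between groups, and their changes were -2.54 ± 0.43 and -2.14 ± 0.35 on the log2 scale (SE, adjusted p = 0.0028 and 0.0026, edgeR). Of the exonic bases of HOXB6, 32.9% overlap HOXB3 or the antisense gene HOXB-AS3, and reads on these bases are left out by default in counting without strand, so its count rests on its other bases. HOXB5 shares 3.58% of its bases in this way.

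HOXA5, which patterns the neck and lung, had 3.82, 4.20 and 4.48 CPM in KMT2D-WT and 1.19, 1.68, 0.975 and 0.972 CPM in KMT2D-KO cells. None of its exonic bases overlap another gene, the groups did not overlap, and its change was -1.85 ± 0.23 (SE, adjusted p = 0.00074, edgeR). HOXD9, a limb and lumbar gene that is also free of overlap with other genes, had 9.51, 7.66 and 8.10 CPM against 1.44, 3.25, 2.51 and 3.13 CPM, a change of -1.70 ± 0.25 (SE, adjusted p = 0.0016, edgeR). HOXA9 and HOXC6, already lower with glucose, changed by -2.11 ± 0.41 and -1.81 ± 0.28 (SE, adjusted p = 0.0050 and 0.0019, edgeR). HOXC6 had 7.11, 6.26 and 6.22 CPM in KMT2D-WT and 2.82, 1.18, 1.67 and 1.94 CPM in KMT2D-KO cells.

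HOXC13 was the HOX gene called higher, with 3.91, 2.46 and 3.76 CPM in KMT2D-WT and 5.02, 5.43, 5.11 and 4.99 CPM in KMT2D-KO cells. The groups did not overlap and its change was 0.59 ± 0.19 (SE, adjusted p = 0.036, edgeR). HOXD13 had 2.09, 2.52 and 2.42 CPM against 2.26, 2.18, 2.42 and 2.75 CPM, so its groups overlapped, and its change was 0.07 ± 0.16 (SE, adjusted p = 0.74, edgeR). HOXA13 was low in every -Glc library, between 0.145 and 1.31 CPM, with a change of 0.94 ± 0.61 (SE, adjusted p = 0.23, edgeR). The most abundant genes divided. HOXD10 had 22.2, 22.9 and 26.1 CPM in KMT2D-WT and 14, 11.8, 12.1 and 12.5 CPM in KMT2D-KO cells and fell by 0.91 ± 0.12 (SE, adjusted p = 0.00092, edgeR), while HOXB7 changed by -0.15 ± 0.26 (SE, adjusted p = 0.65, edgeR) with overlapping groups.

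Of 27 HOX genes with a mean of at least 1 CPM over the -Glc libraries, 15 had every KMT2D-KO library below every KMT2D-WT library and 1 had every one above, beside 18.5% and 17.2% of all 14166 genes at that level. Of the 19 HOX genes called, 12 remained in number without experiment as covariate, where 1706 of all 16782 genes were called higher and 1953 lower. When each close pair of experiment 2 was summed 5 remained, beside 1517 higher and 1268 lower of 16867 genes. Without the KO1 library of experiment 1, 22 were called, beside 6136 higher and 6312 lower of 16739 genes. Without both KMT2D-KO libraries of experiment 2, 0 of all 16946 genes were called, HOX genes included (edgeR, 10 HOX genes at an unadjusted p under 0.05). A negative log2 fold change remained for 22 of 28 HOX genes, with a median of -0.73. HOXB6 was then at -2.59 ± 0.69 and HOXD9 at -2.01 ± 0.47 (SE, adjusted p = 0.096 and 0.082, edgeR). Experiment 1 alone, with 1 KMT2D-WT library, had a median log2 fold change of -0.76 over 29 HOX genes. Experiment 2 alone called 22, beside 6394 higher and 6494 lower of all 17304 genes. Mitochondrial genes took 2.64% to 2.77% of the counts in KMT2D-WT -Glc and 3.82% to 4.83% in KMT2D-KO -Glc libraries, and the fibroblast marker sum was 3.34 to 5.46 CPM and 7.44 to 14.1 CPM. Their part in the HOX results was not tested.

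**Figure D4:**
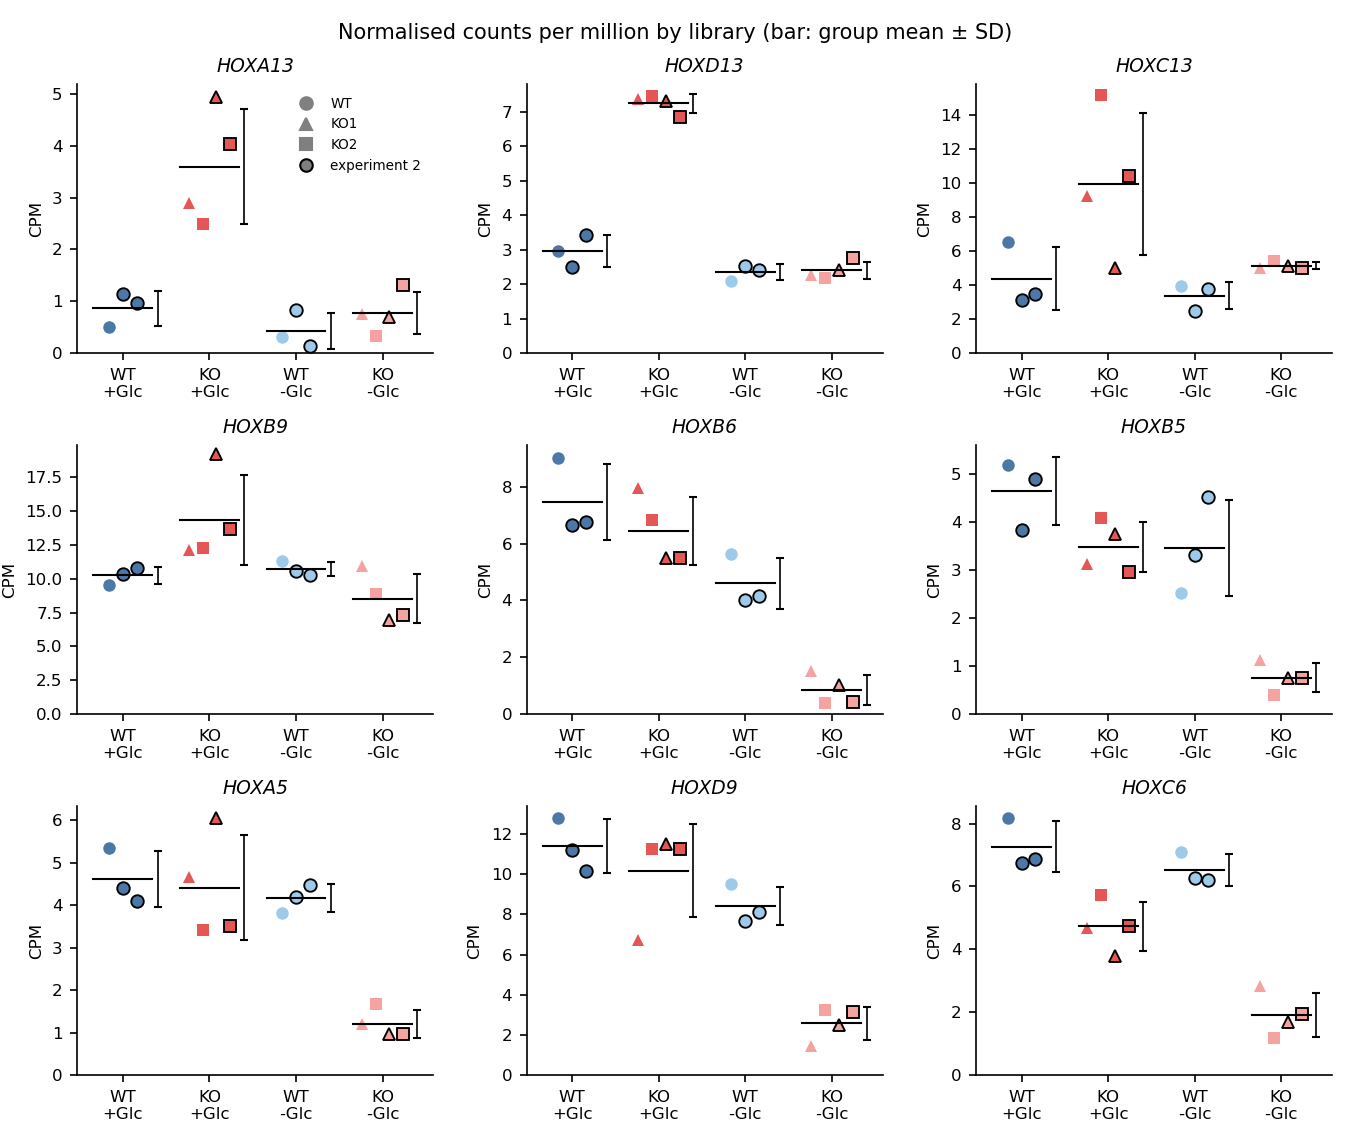
CPM of 9 HOX genes in each library, by group. Symbols give the labelled line, a black edge marks experiment 2, the line is the group mean and the bar the SD (n = 3 KMT2D-WT and 4 KMT2D-KO). HOXD13 stands at about the same level in all but the 4 KMT2D-KO +Glc libraries, and HOXB6, HOXB5, HOXA5 and HOXD9 are low in the 4 KMT2D-KO -Glc libraries.

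Whether the KMT2D-KO effect differed between glucose conditions was tested in a single fit of the 14 libraries. The difference was negative for 27 of the 32 HOX genes tested, 10 passed the test as more negative without glucose and 0 passed as more positive (edgeR and DESeq2 alike; 18 and 0 at an unadjusted p under 0.05 in edgeR). Of all 18678 genes tested 11.3% were called, 6.54% negative and 4.73% positive. The median difference was -0.90 over the HOX genes and 0.00 over all genes. The genes called were 5 of 10 tested in paralog groups 5 to 8, 5 of 14 in groups 9 to 13 and 0 of 8 in groups 1 to 4 (1 at an unadjusted p under 0.05).

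HOXB6 gave the largest difference, -2.25 ± 0.42 on the log2 scale (SE, adjusted p = 0.0070, edgeR). HOXA5 followed at -1.79 ± 0.36 and HOXB5 at -1.69 ± 0.38 (SE, adjusted p = 0.0092 and 0.017, edgeR). In +Glc cells none of these genes was called: HOXA5 had 5.35, 4.40 and 4.10 CPM in KMT2D-WT and 4.66, 3.41, 6.07 and 3.52 CPM in KMT2D-KO cells. HOXD9 and HOXC8, a thoracic gene, differed by -1.54 ± 0.35 and -1.47 ± 0.44 (SE, adjusted p = 0.016 and 0.049, edgeR). HOXD13 differed by -1.20 ± 0.23 (SE, adjusted p = 0.0071, edgeR), and its increase passed the test with glucose and not without it. HOXA11, HOXB9, HOXC6 and HOXD10 made up the 10, with differences from -0.84 to -1.14. HOXB3, HOXC4 and HOXD8 had like decreases in both conditions, with differences of -0.08 ± 0.37, 0.03 ± 0.34 and -0.26 ± 0.20 (SE), none of which passed the test. No HOX gene passed without experiment as covariate (edgeR, 14 at an unadjusted p under 0.05), beside 20 positive and 50 negative of 18678 genes. Without the 4 KMT2D-KO libraries of experiment 2, 0 of all 18442 genes passed, HOX genes included (6 HOX genes at an unadjusted p under 0.05). Without the KO1 -Glc library of experiment 1, 13 HOX genes passed, beside 2137 positive and 2093 negative of 18767 genes.

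The change from +Glc to -Glc was then followed within each genotype, in a comparison added after the other results had been seen. It shares its libraries with the comparisons above. In KMT2D-WT cells 1 of 32 HOX genes fell and 0 rose (edgeR, 2 lower and 0 higher at an unadjusted p under 0.05; DESeq2 called 2 lower), beside 3.30% of 18678 genes called, 2.08% lower and 1.22% higher. That gene was HOXD10, which went from 31.9, 36.6 and 36.3 to 22.2, 22.9 and 26.1 CPM, without overlap, a change of -0.57 ± 0.12 (SE, adjusted p = 0.030, edgeR). It was not called, and the count was 0, when any KMT2D-WT library other than the +Glc library of experiment 1 was left out. In KMT2D-KO cells 22 of 32 HOX genes fell and 0 rose (the same counts in DESeq2 and at an unadjusted p under 0.05), beside 42.6% of genes called, 21.8% lower and 20.8% higher. The median was -0.17 in KMT2D-WT and -0.90 in KMT2D-KO cells, beside 0.00 over all genes in both.

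In KMT2D-KO cells HOXB6 went from 7.97, 6.82, 5.48 and 5.49 to 1.51, 0.392, 1.02 and 0.422 CPM, a change of -2.96 ± 0.35 on the log2 scale (SE, adjusted p = 7.5e-05, edgeR). HOXA6, a neighbour of HOXA5, went from 1.54, 0.384, 1.51 and 0.693 to 0.377, 0.224, 0 and 0.0845 CPM and changed by -2.84 ± 0.69 (SE, adjusted p = 0.0064, edgeR). Its values are low, and 40.1% of its exonic bases overlap other genes. HOXA13 changed by -2.24 ± 0.43, HOXB5 by -2.21 ± 0.30, HOXD9 by -1.98 ± 0.25 and HOXA5 by -1.90 ± 0.25 (SE, adjusted p = 0.0016, 0.00021, 0.00013 and 0.00015, edgeR). In KMT2D-WT cells HOXA13, HOXB5, HOXD9 and HOXA5 changed by -0.99 ± 0.50, -0.44 ± 0.32, -0.45 ± 0.28 and -0.15 ± 0.27 (SE), none past the test. In experiment 2 the +Glc and -Glc libraries also differ in how mates were counted, so glucose and sequencing cannot be told apart there. In experiment 1 alone, with 1 library each of KO1 and KO2 per glucose condition, 0 HOX genes were called in KMT2D-KO cells. There 13 HOX genes were lower at an unadjusted p under 0.05 (edgeR). Of all 18571 genes, 15 were called higher and 5 lower. HOXB6 was at -3.03 ± 0.59, HOXB5 at -2.31 ± 0.58 and HOXD9 at -1.99 ± 0.47 (SE).

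A fit of experiment 1 with line as covariate gave the effect of glucose deprivation over KMT2D-WT, KO1 and KO2 together. Of 30 HOX genes tested 29 had a negative log2 fold change, with a median of -0.71 against -0.02 over all genes, but only HOXD10 passed (-1.05 ± 0.22, SE, adjusted p = 0.049, edgeR), beside 1.10% of 16066 genes called, 0.622% lower and 0.479% higher. It went from 31.9, 26.9 and 35.1 CPM in KMT2D-WT, KO1 and KO2 to 22.2, 14 and 11.8 CPM. The count was unstable, from 0 without either KO2 library to 11 without either KMT2D-WT library, and 4 without either KO1 library. The calls over all genes, 16684 to 16870 in these fits, moved as well. Without the +Glc or -Glc KMT2D-WT library, 331 or 341 were called higher and 943 or 995 lower. For KO1 these were 300 or 274 and 363 or 343, and for KO2 64 or 57 and 115 or 105. Without line as covariate 0 of all 16066 genes were called, HOX genes included (edgeR, 5 HOX genes at an unadjusted p under 0.05). DESeq2 called 6 HOX genes, beside 219 higher and 412 lower of all genes.

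The lines KO1 and KO2 were compared in +Glc cells, with 2 libraries each. Of 35 HOX genes tested, 5 were higher and 2 were lower in KO1 than in KO2, beside 14.7% of 21850 genes called, 7.32% higher and 7.40% lower (edgeR, adjusted p under 0.05). HOXB13 had 13.5 and 13.1 CPM in KO1, 6.97 and 4.72 CPM in KO2 and 9.68, 8.50 and 8.17 CPM in KMT2D-WT. The lines lay on opposite sides of KMT2D-WT, with a log2 fold change of 1.23 ± 0.17 between lines (SE, adjusted p = 6.8e-05, edgeR), 0.58 ± 0.14 for KO1 against KMT2D-WT and -0.65 ± 0.16 for KO2 against KMT2D-WT (SE, adjusted p = 0.0047 and 0.0029, edgeR). Both fits against KMT2D-WT share its libraries.

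In the HOXA cluster KO1 was above KO2 for HOXA6 (1.39 ± 0.41) and HOXA10, a uterus and lumbar gene (0.70 ± 0.17, SE, adjusted p = 0.028 and 0.0086, edgeR). HOXA6 had 1.54 and 1.51 CPM in KO1 and 0.384 and 0.693 CPM in KO2. HOXB7 was also higher in KO1, by 0.39 ± 0.12 (SE, adjusted p = 0.032, edgeR). In the HOXC cluster KO1 was below KO2 for HOXC10, by -1.19 ± 0.23, and for HOXC13, by -0.91 ± 0.18 (SE, adjusted p = 0.0017 and 0.0018, edgeR). HOXC10 had 4.78 and 2.35 CPM in KO1, 9.42 and 5.98 CPM in KO2 and 5.74 to 7.47 CPM in KMT2D-WT. None of the 7 HOXD genes tested passed (edgeR, 1 at an unadjusted p under 0.05).

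Against KMT2D-WT, KO1 had 6 HOX genes higher and 5 lower, and KO2 had 5 higher and 8 lower, where 32.0% and 34.6% of all genes were called. HOXA13 was at 2.30 ± 0.24 in KO1 and 2.05 ± 0.24 in KO2, and HOXD13 at 1.31 ± 0.18 and 1.27 ± 0.18 (SE, adjusted p of 2.8e-05 or less, edgeR). HOXC13 was at 0.58 ± 0.17 in KO1 and 1.49 ± 0.16 in KO2 (SE, adjusted p = 0.012 and 1.1e-06, edgeR). Without experiment as covariate, KO1 against KO2, KO1 against KMT2D-WT and KO2 against KMT2D-WT called 8, 321 and 315 of 21850 genes higher. They called 3, 209 and 261 lower. In each of these 3 fits 0 HOX genes passed (edgeR, 4, 8 and 6 at an unadjusted p under 0.05). The number for KO1 against KO2 was 4 without the KO2 library of experiment 1 and 2 without either line's library of experiment 2, that for KO1 against KMT2D-WT was 6 without the KO1 library of experiment 2, and that for KO2 against KMT2D-WT was 5 without the KO2 library of experiment 2. In -Glc cells the KO1 library of experiment 1 had 15.4 CPM of HOXB13 and its KO2 library 1.96 CPM. The libraries that experiment 2 labels KO1 and KO2 had 2.97 and 3.59 CPM, so by this gene both lay near the KO2 library of experiment 1.

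**Figure D5:**
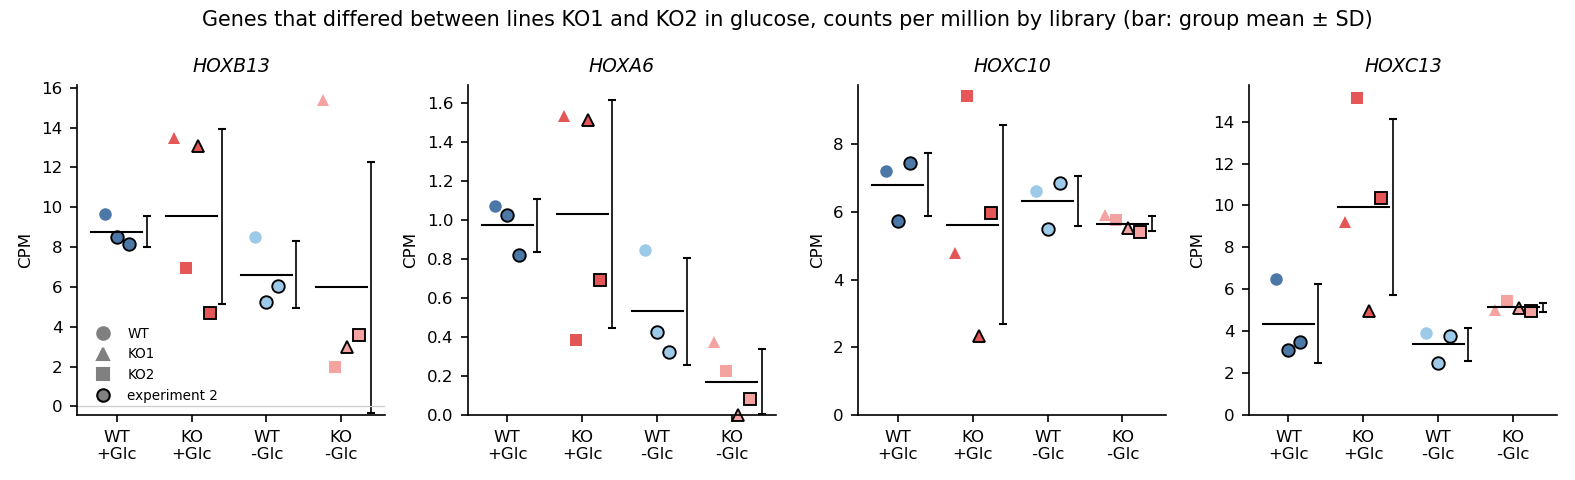
CPM of HOXB13, HOXA6, HOXC10 and HOXC13 in each library, by group. Triangles are labelled KO1, squares KO2 and circles KMT2D-WT, a black edge marks experiment 2, the line is the group mean and the bar the SD (n = 3 KMT2D-WT and 4 KMT2D-KO). In +Glc cells KO1 lies above KO2 for HOXB13 and HOXA6, and within each experiment below it for HOXC10 and HOXC13.

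Genes around the HOX genes were described from lists by counts and medians, and those named here were picked after their values had been seen. Of 19 listed HOX cluster lncRNAs 18 were in the tables. In +Glc cells 5 of 16 tested were higher and 1 was lower in KMT2D-KO, with a median of 0.31. HOXC13-AS, the antisense neighbour of HOXC13, rose by 1.73 ± 0.46 and HOXA11-AS by 1.20 ± 0.35 (SE, adjusted p = 0.025 and 0.036, edgeR). HOTTIP, which lies beside HOXA13 and is known to maintain transcription at that end of the cluster, had 0, 0.0452 and 0.0683 CPM in KMT2D-WT and 0.236, 0.288, 0.293 and 0.490 CPM in KMT2D-KO cells (adjusted p = 0.0098, edgeR), a difference between very low levels. HOTTIP passed the filter only through its KMT2D-KO libraries, so its call could hardly go the other way. In -Glc cells 6 of 11 tested were lower and 1 was higher. HOXB-AS3, which overlaps HOXB5 and HOXB6, had 2.84, 2.64 and 2.10 CPM in KMT2D-WT and 0, 0.560, 0.325 and 0.253 CPM in KMT2D-KO cells, without overlap, and changed by -3.13 ± 0.54 (SE, adjusted p = 0.0032, edgeR).

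Among 11 TALE cofactors, 10 were tested in +Glc cells, where 1 was higher and 2 were lower in KMT2D-KO, and 9 in -Glc cells, where 2 were higher and 3 were lower. PBX3, which binds DNA jointly with HOX proteins, had 45.0, 62.2 and 61.1 CPM in KMT2D-WT and 18.8, 15.5, 26.0 and 19.1 CPM in KMT2D-KO +Glc cells, without overlap. It changed by -1.41 ± 0.13 on the log2 scale with glucose and by -1.29 ± 0.12 without it (SE, adjusted p = 0.00014 and 0.00022, edgeR). MEIS2 changed by -0.50 ± 0.13 and -1 ± 0.14 (SE, adjusted p = 0.023 and 0.0011, edgeR).

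Of 32 Polycomb genes 31 were tested in each condition. With glucose 6 were higher and 7 lower in KMT2D-KO cells and without it 7 were higher and 9 lower, with medians of 0.02 and 0.05. The H3K27 methyltransferase EZH2 changed by -0.85 ± 0.15 and -0.53 ± 0.09 (SE, adjusted p = 0.0039 and 0.0023, edgeR) and its partner SUZ12 by -1.18 ± 0.11 and -1.36 ± 0.10 (SE, adjusted p = 0.00014 and 0.00010, edgeR). CBX2, a reader of H3K27 methylation, rose by 0.50 ± 0.16 with glucose and fell by 0.74 ± 0.13 without it (SE, adjusted p = 0.045 and 0.0032, edgeR), a difference of -1.21 ± 0.22 (SE, adjusted p = 0.0056, edgeR). Of 9 H3K27 demethylases and trithorax partners 1 was higher and 2 lower with glucose, and 2 were higher and 2 lower without, and the demethylase KDM6A rose by 1.31 ± 0.25 without glucose (SE, adjusted p = 0.0048, edgeR).

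Retinoic acid is a classical inducer of HOX genes. Of its 18 listed genes 12 were tested with glucose, where 4 were called, all of them higher in KMT2D-KO, and 10 without, where 4 were higher and 1 lower. ALDH1A3, which makes retinoic acid, had 92.2, 45.2 and 55.2 CPM in KMT2D-WT and 349, 270.2, 197 and 136 CPM in KMT2D-KO +Glc cells, without overlap, and rose by 1.75 ± 0.16 (SE, adjusted p = 0.00014, edgeR). Of 8 CTCF and cohesin genes, which shape the boundaries of the clusters, 1 was higher and 2 were lower in each condition. The 22 genes listed beside the clusters served as neighbours. In +Glc cells 1 of 16 tested was called, as lower in KMT2D-KO, and in -Glc cells 3 of 16 were lower and 3 higher. Their medians per cluster in -Glc cells were -0.39 for HOXA, 0.14 for HOXB, -0.06 for HOXC and 0.09 for HOXD, beside -0.60, -1.04, -0.95 and -0.91 for the HOX genes. Of the 6 ParaHox genes, relatives of the HOX genes outside the clusters, only PDX1 passed the filter. It had 0, 0.0302 and 0.0342 CPM in KMT2D-WT and 2.36, 1.68, 1.54 and 1.57 CPM in KMT2D-KO +Glc cells and was called higher in KMT2D-KO in both conditions (adjusted p = 0.00010 and 0.0025, edgeR). In +Glc cells PDX1 passed the filter only through its KMT2D-KO libraries. Its call there could hardly go the other way and adds nothing to the values.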

How the data were processed

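The authors deposited unnormalized counts per gene, made with featureCounts 2.0.3 and the Ensembl 102 annotation, without strand, from HISAT2 alignments to GRCh38. Reads on more than 1 gene are not counted by default, so exons shared with a neighbour lower a gene's count. In 4 libraries both mates were counted. From the deposited counts, genes were filtered (filterByExpr, minimum count of 10), normalized by TMM and tested with the quasi-likelihood test of edgeR 4.0.16 in R 4.3.3, with Benjamini-Hochberg adjustment over all genes tested. Experiment was a covariate because its number marks a shared batch: over 14266 genes, experiments differed alike in both genotypes (correlation 0.95 with and 0.85 without glucose). The paper's methods name DESeq2 without covariate, tried here as an alternative with version 1.42.0. CPM use TMM-scaled library sizes and RPKM the featureCounts gene length. The edgeR fits were also run on counts simulated from the fitted model. These were drawn independently, so they do not copy the close pairs of experiment 2 or the doubtful line labels. Described singly were up to 6 genes per direction with the largest change among those called, with at least 1 CPM in a group and the same direction in both experiments, and the highest gene of each cluster. The members, lists and tests were chosen with earlier results of these data known. Promoter windows came from RefSeq. Single values of 1 HOX gene and 1 cofactor are not reported here.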

Additional observations from a re-analysis of the deposited data

Results flagged for a closer look

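In 4 of 46 groups of 4 libraries, 1 library stood far from the other 3 by Dixon's test, which chance does in about 1 of 20 groups. These were all of line KO1 in experiment 1. In KMT2D-KO -Glc cells it had 39.8 CPM of HOXB7, with 17.9 to 20.7 in the others, 15.4 CPM of HOXB13, with 1.96 to 3.59 in the others, and 6.59 CPM of HOXD8, with 4.54 to 4.69 in the others. In KMT2D-KO +Glc cells it had 6.73 CPM of HOXD9, with 11.2 to 11.5 in the others. In -Glc cells this is the KMT2D-KO library that by HOXB13 alone lay near line KO1.

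For 10 genes the KMT2D-KO effect differed between glucose conditions by the test of the difference itself (edgeR, adjusted p under 0.05). The differences in log2 fold change, without minus with glucose, were -2.25 for HOXB6, -1.79 for HOXA5, -1.69 for HOXB5, -1.54 for HOXD9, -1.47 for HOXC8, -1.20 for HOXD13, -1.14 for HOXC6, -0.93 for HOXB9, -0.91 for HOXD10 and -0.84 for HOXA11. For HOXB6, HOXA5, HOXB5, HOXD9, HOXC8, HOXC6, HOXB9, HOXD10 and HOXA11 a decrease was called in KMT2D-KO -Glc cells, and for HOXD13 and HOXB9 an increase in KMT2D-KO +Glc cells.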

How the results depend on the processing

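In most comparisons the number of HOX genes called depended on the design. Without experiment as a covariate, that is without the replicate block, the KMT2D-KO effect called 2 in place of 10 with glucose and 12 in place of 19 without it. The difference between glucose conditions then called 0 in place of 10, and each of the 3 comparisons of lines called 0 in place of 7, 11 and 13 (edgeR, unadjusted counts stand with each result). Glucose deprivation called 0 in place of 1 in KMT2D-WT and 16 in place of 22 in KMT2D-KO cells (edgeR, 1 and 21 at an unadjusted p under 0.05). Of all 18678 genes, these 2 fits called 6 and 1031 higher and 17 and 2189 lower. With glucose, DESeq2 without experiment called 4, beside 1386 higher and 1191 lower of all 20423 genes. Experiment 2 alone called 2, beside 1211 higher and 1125 lower of 19885 genes. With glucose, experiment 1 alone, with 1 KMT2D-WT library, had a median log2 fold change of -0.26 over 33 HOX genes. Without glucose, experiment 1 alone, with 1 KMT2D-WT library, had a median log2 fold change of -0.76 over 29 HOX genes. Sums of the close pairs called 5, beside 1517 higher and 1268 lower of all 16867 genes. Without KMT2D-KO libraries of experiment 2, chosen after seeing the data, the -Glc effect and the difference called 0 of all genes, HOX genes included. Glucose deprivation in experiment 1 called 1 HOX gene, and without line 0 of all genes. It called 3 HOX genes with RLE, 9 without a filter, 6 with DESeq2 and 17 with all 14 libraries. Over all genes these fits called 124, 367, 219 and 3939 higher and 205, 791, 412 and 3398 lower. Among comparisons added after seeing the data, glucose deprivation in experiment 1 alone called 0 in KMT2D-WT and 0 in KMT2D-KO cells, and DESeq2 called 2 in KMT2D-WT cells. Leaving out each library in turn gave 2 to 11 and 13 to 22 for the KMT2D-KO effect with and without glucose, 7 to 13 for the difference, 0 to 11 for experiment 1, 2 to 8, 6 to 11 and 5 to 13 for the lines (KO1 against KO2, KO1 and KO2 against KMT2D-WT), and 0 to 1 and 20 to 24 for glucose deprivation in KMT2D-WT and KMT2D-KO cells. RLE, a minimum count of 30, halved counts of the libraries with both mates, and DESeq2 with the same design left the other counts within 1.5 times. No named gene changed direction under any alternative run. With a limit of 0.5 or 2 CPM, 30 or 23 genes were expressed in place of 29. The counts of genes of paralog groups 1 to 4 rest on low levels, where depth limits what can be called.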
